A study of Mus musculus with 10 samples.

Results

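The level of 10 genes of the bone, tendon, cartilage and fat lineages was followed through the chemical reprogramming of mouse fibroblasts into extraembryonic endoderm (XEN)-like cells. The members were taken by name, and all 10 of them were among the 23197 genes of the single-cell count table. They are *Sp7*, *Runx2* and *Alpl* for bone, *Scx* and *Tnmd* for tendon, *Acan* for cartilage, and *Pparg*, *Cebpa*, *Fabp4* and *Lpl* for fat. Mouse embryonic fibroblasts (MEFs) from midgestation ICR embryos without head, limbs and internal organs were treated with C6FAE, a cocktail of the GSK3 inhibitor CHIR99021, the ALK5 inhibitor RepSox, forskolin, which raises cAMP, the retinoic acid receptor agonist AM580 and the DOT1L inhibitor EPZ004777. Cells were digested and picked by hand at 10 time points from d0, the untreated MEFs, to d20, and 808 of them were deposited in 12 groups. The groups d8c and d12c differ from d8 and d12 by the letter c, which the study uses for cells picked from colonies, and the meaning of p in d6p was not given in the sources used here. All groups but d0 had received the cocktail, no engineered allele was named for any group, and no treated group without one of the compounds was analysed here.

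Of the 808 cells, 670 had at least 4000 detected genes and were kept, from 20 in d8c to 86 in d6p. Their median depth was 510306 UMIs (unique molecular identifiers, counted once per captured RNA), and the group medians ran from 195480 at d20 to 1055206 at d2. The cell names do not show which of the 10 batches a cell came from, so the table was treated as 1 sample. Cells are not replicates, and the comparisons of groups therefore carry no test and no p-value. Intervals are at 95%, Poisson for sums of UMIs and Clopper-Pearson for shares of cells above 0, and both cover counting error only. Levels are UMIs of a gene per 1000000 UMIs of the cell (CPM), without spike-in RNA. The summed CPM of 10 fibroblast markers had a median of 3215 in d0 and 244 in d20, and that of 12 XEN markers 159 and 2086, so both ends of the course matched their labels. The cells of d12c stood apart by their running number. In the 21 kept cells numbered 1 to 24 *Alpl* had a median of 2.99 CPM and in the 30 numbered 49 to 96 a median of 57.1 CPM, and values for both ranges are given where a result rests on them. Spike-in RNA made up 3.04% of the counts in d0 and 18.0% in d20. The comparisons of groups were repeated per spike-in UMI, and the source of this difference was not tested.

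*Runx2* and *Sp7* (osterix) are transcription factors that act in sequence in osteoblast formation, and *Alpl* encodes the tissue-nonspecific alkaline phosphatase needed for mineralisation, which early embryonic and other epithelial cells can also carry. *Scx* (scleraxis) marks tendon progenitors, and *Tnmd* (tenomodulin) is a membrane glycoprotein of maturing tenocytes. Aggrecan, from *Acan*, is the main proteoglycan of cartilage. PPARγ and C/EBPα together drive fat cell formation, and their known targets include *Fabp4*, a fatty acid carrier, and *Lpl*, lipoprotein lipase. Embryonic fibroblasts are a mixture of mesenchymal cells, and such cultures are known to hold cells able to form bone, cartilage and fat.

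RefSeq windows from 250 bases before to 50 after a gene start were given for 6 of the 10 members, in 9 promoters on GRCm38.p6, and *Sp7*, *Scx*, *Fabp4* and *Lpl* were not matched. They were searched on both strands for 4 motifs that relate to the cocktail or the lineages, namely the cAMP response half-site TGACGT, the LEF and TCF core CTTTGA, the nuclear receptor half-site AGGTCA and the RUNX core TGTGGT. Of all 32851 promoters in the table, 7.51%, 16.0%, 16.3% and 16.8% held them. The windows below belong to the members whose levels differed most along the course, *Runx2*, *Alpl* with its 2 starts, and *Tnmd*, and capitals mark the motif matches on either strand.
Runx2, chr17:44814578-44814877, minus strand: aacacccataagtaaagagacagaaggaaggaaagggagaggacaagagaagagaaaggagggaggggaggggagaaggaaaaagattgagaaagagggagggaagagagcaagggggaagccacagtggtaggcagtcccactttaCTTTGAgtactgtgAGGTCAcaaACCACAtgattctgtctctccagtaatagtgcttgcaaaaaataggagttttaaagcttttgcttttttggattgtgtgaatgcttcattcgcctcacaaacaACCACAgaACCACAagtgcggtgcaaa
Alpl promoter 1, chr4:137796335-137796634, minus strand: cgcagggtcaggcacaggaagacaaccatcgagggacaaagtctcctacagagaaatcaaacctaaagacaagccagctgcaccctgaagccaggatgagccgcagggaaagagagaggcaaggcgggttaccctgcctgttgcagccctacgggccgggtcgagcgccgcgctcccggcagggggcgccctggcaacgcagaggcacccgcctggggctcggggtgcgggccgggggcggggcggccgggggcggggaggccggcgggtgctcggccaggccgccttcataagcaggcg
Alpl promoter 2, chr4:137766426-137766725, minus strand: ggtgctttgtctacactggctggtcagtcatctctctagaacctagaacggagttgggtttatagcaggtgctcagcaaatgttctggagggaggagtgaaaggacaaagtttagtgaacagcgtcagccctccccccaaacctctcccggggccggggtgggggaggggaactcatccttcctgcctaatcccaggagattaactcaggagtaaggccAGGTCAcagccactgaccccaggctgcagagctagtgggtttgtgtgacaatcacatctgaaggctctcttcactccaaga
Tnmd, chrX:133850758-133851057, plus strand: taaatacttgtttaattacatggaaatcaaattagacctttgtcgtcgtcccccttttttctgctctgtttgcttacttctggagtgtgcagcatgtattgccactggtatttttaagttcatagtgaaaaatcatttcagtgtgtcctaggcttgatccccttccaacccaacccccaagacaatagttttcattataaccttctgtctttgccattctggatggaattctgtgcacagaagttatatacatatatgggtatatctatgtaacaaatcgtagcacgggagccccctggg
The *Runx2* window held 5 matches that did not overlap, 1 LEF and TCF core at -103, 1 nuclear receptor half-site at -89 and 3 RUNX cores at -80, 23 and 31 bases from the start. *Alpl* promoter 2 held 1 nuclear receptor half-site at -31, and *Alpl* promoter 1 and *Tnmd* held none of the 4. Of the other promoters, 2 of the 3 for *Pparg* held 1 nuclear receptor half-site each, at -28 and -9, while those of *Acan* and *Cebpa* held none. A match is a stretch of letters and not a bound site.

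**Figure D1:**
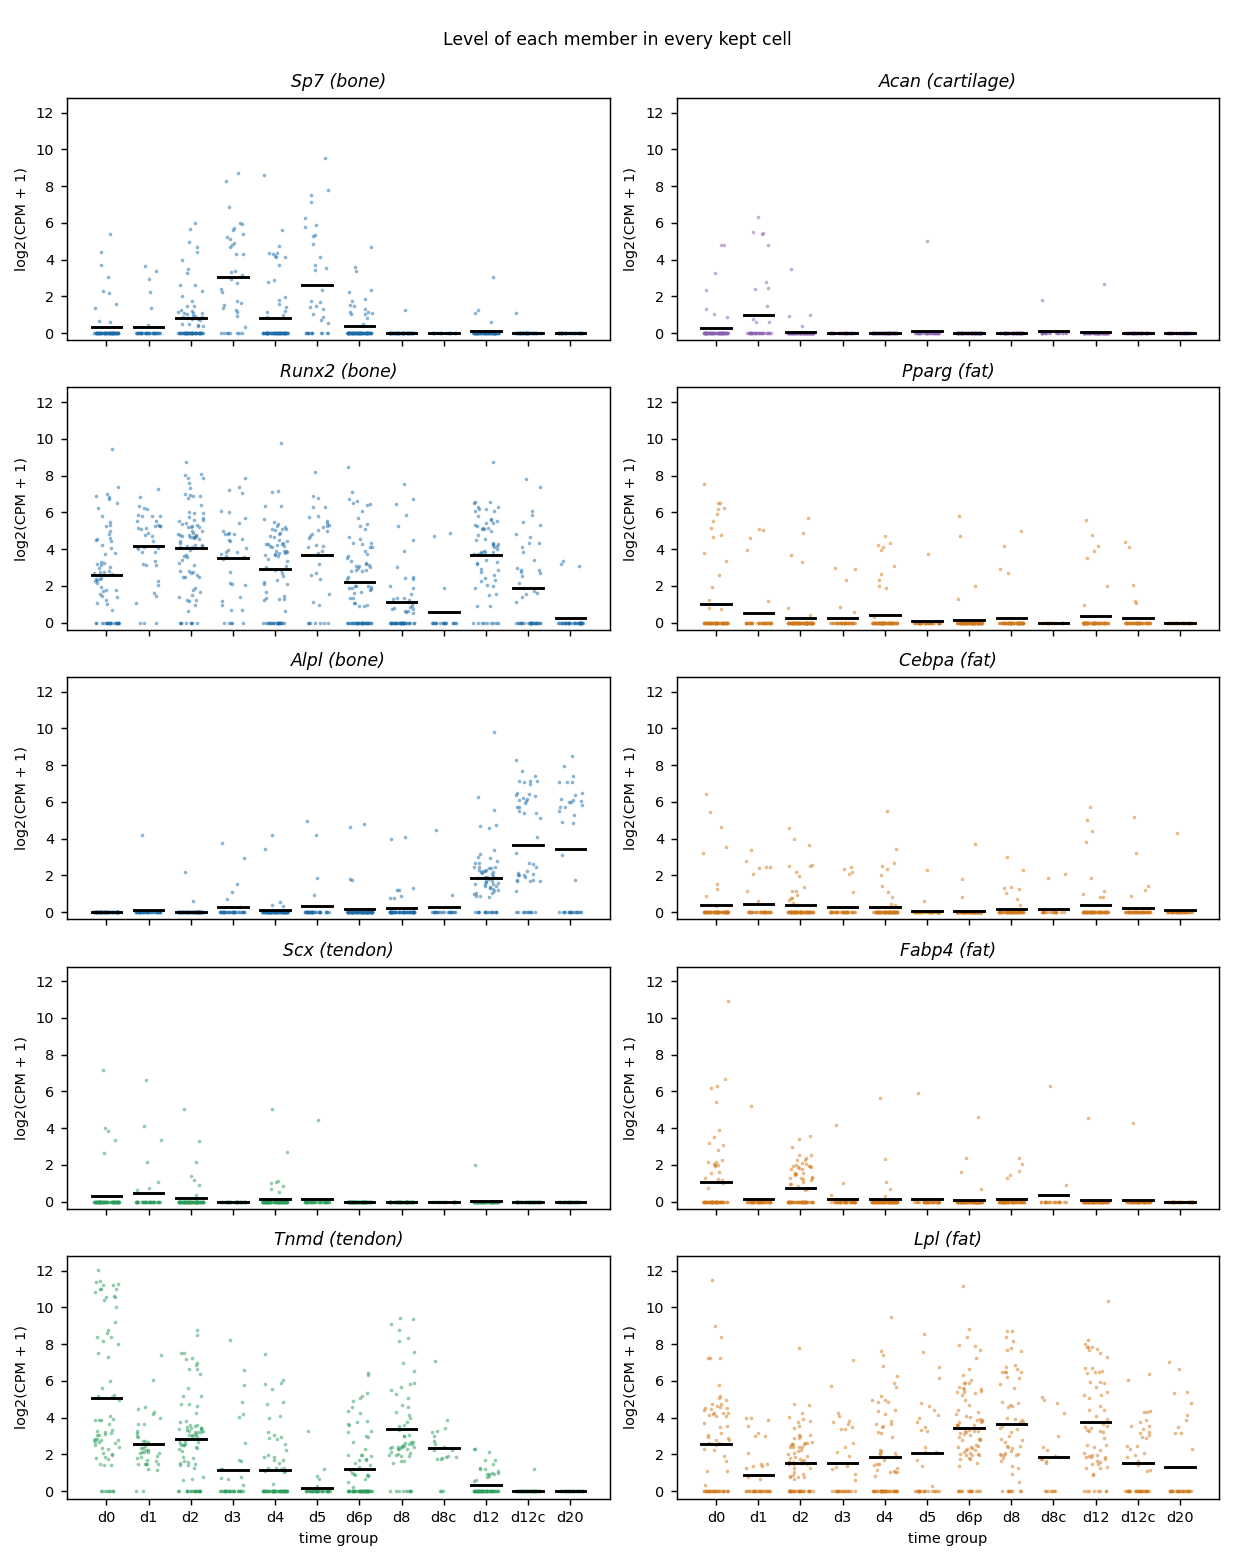
Level of the 10 members in each of the 670 kept cells as log2(CPM + 1), by time group, with points for cells and black bars for group means of the log2 values. *Tnmd* in d0 splits into a high and a low set of cells, *Sp7* is highest in d3 and d5, and *Alpl* is spread over d12, d12c and d20 after being at 0 in every cell of d0.

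*Sp7* (chr15:102187040-102197285, NCBIM37) was most abundant midway. Its mean was 1.30 CPM in d0, 0.84 in d1, 3.13 in d2, 35.6 in d3, 7.92 in d4, 45.8 in d5 and 0.82 in d6p, and 0.16 CPM or less from d8 on. Single cells weighed on these means, which were 0.73 CPM in d0, 2.88 in d4 and 25.9 in d5 without the highest cell. Within d4 the mean was 32.5 CPM in cell numbers 73 to 96 and 1.41 to 2.40 in the ranges below. Within d5 the mean was 62.7 CPM in cell numbers 1 to 24 and 12.2 in numbers 25 to 48. In d5 the 36 cells ran from 0 to 744.8 CPM with a median of 1.75, and in d3 the 38 cells ran from 0 to 423.0 with a median of 6.21. The cells of d0 ran from 0 to 41.7 CPM with a median of 0 and those of d2 up to 62.1, so the ranges overlapped. Levels of 100 CPM or more were reached in d3, d4 and d5 only, in d4 by 1 cell. The shares of cells with a UMI were 78.9% in d3, 26.0% in d4 and 66.7% in d5 against 13.9% in d0. After thinning to 50000 UMIs a cell they were 51.4%, 12.3%, 31.4% and 1.41%. For comparison, 16 genes of unrelated tissues, such as insulin and rhodopsin, had a UMI in 0.66% to 3.82% of their gene and cell pairs in the 12 groups. After d6p *Sp7* nearly vanished. There was 1 UMI in 62 cells of d8, and 0 in 38 cells of d20, which leaves room for a share of 7.89% with 3 cells as the limit for a count of 0. Pooled over cells, *Sp7* was at least 134-fold lower in d20 than in d5, with 3 UMIs over the group as the limit for a count of 0. The highest cell held 60.4% of the *Sp7* UMIs of d5, and the bound was 55.3-fold without it.

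The cells with *Sp7* at 10 CPM or more made up 39 of the 151 cells of d3, d4 and d5. They were 15 of 38 cells in d3, 10 of 77 in d4 and 14 of 36 in d5. Of the 112 other cells, 67 were from d4, so the 2 sets differ in day. Other osteoblast genes were only partly shared with the *Sp7* cells. *Runx2* reached 10 CPM in 25 of these 39 cells and in 59 of the other 112. *Ibsp*, bone sialoprotein, had a mean of 592 CPM in the *Sp7* cells and 140 in the others, but medians of 6.03 and 3.83, so the means rest on a few cells. *Pth1r*, the parathyroid hormone receptor, had medians of 28.3 and 2.23 CPM. *Col1a1*, the main collagen of bone and of fibroblasts, went the other way with medians of 376 and 847 CPM. *Alpl* had means of 0.48 and 0.74 CPM, and *Dmp1*, *Sost*, *Mepe* and *Phospho1*, genes of mineralising cells and osteocytes, had no UMI in any of the 151 cells. The *Sp7* cells were deeper, with a median of 762697 UMIs against 508477. The parts of depth and of day in these values were not tested.

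*Runx2* (chr17:44632936-44951746, NCBIM37) was spread over most cells. Its mean was 28.0 CPM in d0, 32.3 in d1, 45.6 in d2, 32.3 in d3, 27.8 in d4 and 34.1 in d5, and 17.4 in d6p, 8.79 in d8, 2.84 in d8c, 30.2 in d12, 15.2 in d12c and 0.66 in d20. The median cell had 4.20 CPM in d0, 25.9 in d1, 13.9 in d12 and 0 in d20. The mean of d0 included 1 cell at 711.7 CPM, without which it was 18.3, and that of d4 was 16.8 without a cell at 866.5 CPM. The highest cell of d20 had 9.27 CPM, below the 10 CPM that 22 of 72 cells reached in d0, 28 of 40 in d1 and 40 of 67 in d12. Both low points, d8 with 7 of 62 cells and d20 with 0 of 38, thus had d12 between them. Within d12c *Runx2* averaged 29.5 CPM in cell numbers 1 to 24 and 5.13 in numbers 49 to 96. The annotation holds a second gene entry for *Runx2* and an exon that overlaps *Gm10497* on the other strand. Whether counting used the strand was not stated, so reads of these could not be told apart.

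*Alpl* (chr4:137297648-137352299, NCBIM37), the enzyme among the bone members, was highest when *Sp7* was at or near 0. There was no UMI in the 72 cells of d0, and a count of 0 leaves room for a share of 4.17%. From d1 to d8c the means lay between 0.05 and 1.40 CPM, followed by 18.2 in d12, 46.6 in d12c and 52.5 in d20. In d20 the 38 cells ran from 0 to 365.9 CPM with a median of 28.3, and 20 of them reached 10 CPM. In d12c the 51 cells ran from 0 to 314.9 with a median of 5.50, and 24 reached 10 CPM. In d12 the 67 cells ran from 0 to 880.0 CPM with a median of 2.24, and 6 reached 10 CPM. The highest cell held 72.2% of the CPM of d12, and the mean without it was 5.14. Shares of cells with a UMI, 77.6% in d12, 80.4% in d12c and 57.9% in d20, changed order with depth and were 15.2%, 48.9% and 52.8% after thinning. Pooled UMIs were 1928 (1843 to 2016) in d12, 887 (829.6 to 947) in d12c and 382 (345 to 422) in d20, at least 457-fold, 617-fold and 581-fold higher in CPM than in d0. The highest cell held 84.8% of the UMIs of d12, and that bound was 71.8-fold without it.

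In d12c and d20 *Alpl* lay mostly in cells that carried the XEN transcription factor *Sox17*. Such cells, with *Sox17* at 100 CPM or more, were also 33 of all 51 in d12c and 36 of 38 in d20. Among d12c cells with *Sox17* at 100 CPM or more, 22 of 33 reached 10 CPM of *Alpl* (66.7%, 48.2% to 82.0%), against 2 of 18 of the others (11.1%, 1.38% to 34.7%). Within the cells numbered 49 to 96 the counts were 20 of 26 and 2 of 4, and within those numbered 1 to 24 they were 2 of 7 and 0 of 14. The medians of *Alpl* were 57.1 and 33.5 CPM in numbers 49 to 96, and 4.45 and 2.30 in numbers 1 to 24. Most of the 33 cells (26) were numbered 49 to 96 and most of the 18 (14) were numbered 1 to 24. The part of the number range in the pooled shares was not tested. In d20 the counts were 20 of 36 and 0 of 2. In d12 they were 2 of 6 and 4 of 61, and the cell at 880.0 CPM was among the 61. Most d12 cells with little *Sox17* had a low level of *Alpl*, with a median of 2.17 CPM, whereas the highest of all cells from d0 to d2 but 1 had 3.55 CPM. The source of this low level was not tested. Of the 60 cells of the course with *Alpl* at 10 CPM or more, 11 (18.3%) also had *Runx2* at that level, which 272 of all 670 cells reached. Of these 60, 24 were from d12c and 20 from d20, where *Runx2* reached 10 CPM in 12 of 51 and 0 of 38 cells. The overlap thus rests on the makeup of the groups as well.

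**Figure D2:**
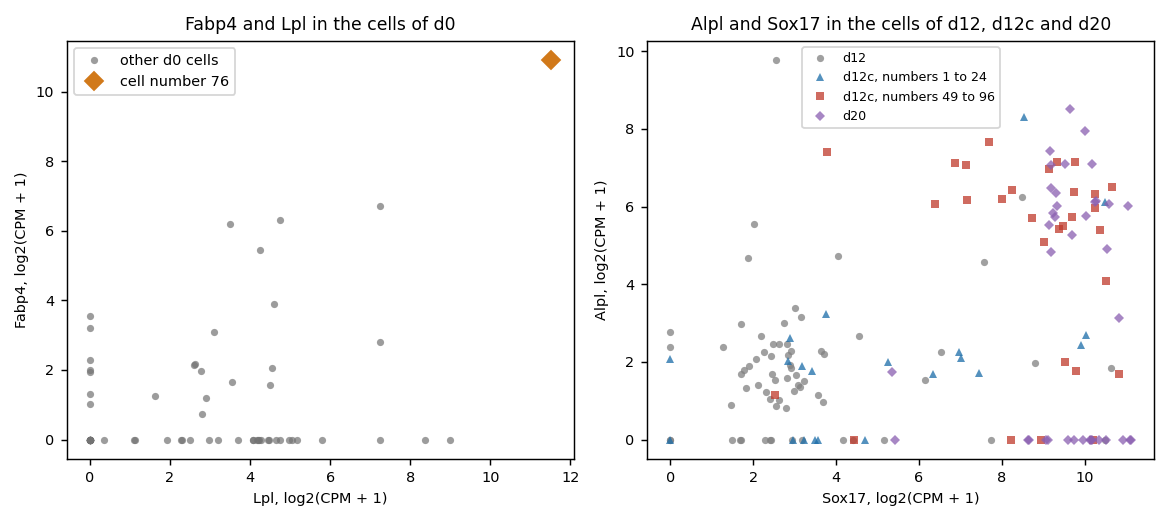
Left, *Fabp4* against *Lpl* in the 72 cells of d0, with the cell numbered 76 as a diamond; right, *Alpl* against *Sox17* in the cells of d12, d12c in its 2 number ranges, and d20, all as log2(CPM + 1). One d0 cell is highest for both fat genes, with 1929.9 CPM of *Fabp4* and 2934 of *Lpl*. In d12c and d20 *Alpl* is high mostly at high *Sox17*, which most cells of these groups carry.

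*Tnmd* (chrX:130385519-130400116, NCBIM37) was carried by a subset of the starting fibroblasts. The 72 cells of d0 ran from 0 to 4169 CPM with a median of 10.1, and 24 of them (33.3%, 22.7% to 45.4%) had 100 CPM or more. These 24 cells held 98.7% of the CPM of d0 and averaged 1449 CPM, while the other 48 had a median of 5.67. The mean was 489 CPM in d0, 11.5 in d1, 30.0 in d2, 13.9 in d3, 7.17 in d4, 0.32 in d5 and 5.64 in d6p. It was 62.9 in d8, 11.0 in d8c, 0.44 in d12 and 0.02 in d12c, and no UMI was found in d20, so that pooled levels were at least 981-fold lower in d20 than in d0. Cells at 100 CPM or more numbered 24 of 72 in d0, 1 of 40 in d1, 9 of 83 in d2, 0 of 36 in d5 and 8 of 62 in d8 (12.9%, 5.74% to 23.9%), running up to 700.6 CPM. The means of d1, d3 and d8c were 7.47, 6.03 and 4.47 CPM without their highest cells. All 3 number ranges of d8 had *Tnmd*, with means of 51.2, 54.1 and 84.6 CPM. In d4 the ranges differed, with means of 7.67 and 15.6 CPM in cell numbers 1 to 24 and 25 to 48, and 3.21 and 0 in numbers 49 to 72 and 73 to 96. Outside the high cells most cells of d0, d1 and d8 had a few CPM, and the source of this low level was not tested.

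*Tnmd* reached 10 CPM in 36 of the 72 cells of d0 and the progenitor marker *Scx* (chr15:76287868-76289898, NCBIM37) in 3. No cell had both, and 3 cells are too few to relate the 2 genes. The 3 cells were among the 48, and none was among the 24 with *Tnmd* at 100 CPM or more. Of 13 other tendon genes, 8 had a higher mean in the 24 cells and 5 a lower one. *Thbs4* and *Fmod*, matrix proteins of tendon, reached 10 CPM in 5 and 10 of the 24 cells and in 0 and 4 of the 48, and *Mkx*, another tendon transcription factor, in 2 of each. *Tppp3* went the other way with means of 2.43 and 26.4 CPM, as did *Tnc*, tenascin C, with 115 and 144. Of 10 fibroblast markers, 7 had a higher mean in the 24 cells, among them *Postn*, periostin, with medians of 274 and 32.8 CPM, and 3 a lower one, among them *Thy1* with medians of 11.0 and 36.8. The *Tnmd* cells had a lower median depth, 281084 UMIs against 493149. *Scx* itself was rare, with 29 of 670 cells holding a UMI. Its mean was 2.61 CPM in d0 and 3.27 in d1, of which single cells at 144.8 and 98.9 CPM gave most, since the means without them were 0.60 and 0.81. It had 70 UMIs (54.6 to 88.4) in d0, of which 1 cell held 70.0% and another, the cell at 144.8 CPM, 25.7%. In d4 it had 136 UMIs, of which 1 cell held 93.4%. There was 1 UMI each in d5 and d12, and none in d3, d6p, d8, d8c, d12c and d20. *Scx* lies inside *Bop1* on the other strand and shares no exon with it.

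*Acan* (chr7:86198369-86259985, NCBIM37) was seen mainly on the first day. Its mean was 0.97 CPM in d0, 6.31 in d1, 0.15 in d2 and 0.86 in d5, where 1 cell held all 14 UMIs, and 0.12 or less in the other groups. In d1 the 40 cells ran from 0 to 78.7 CPM with a median of 0, and 12 of them had a UMI (30.0%), against 7 of 72 in d0 (9.72%). After thinning these shares were 12.5% and 2.82%. No d1 cell was numbered above 48, and all 7 d0 cells with a UMI were numbered 1 to 48. In numbers 1 to 24 a UMI was found in 6 of 24 cells of d1 and 3 of 23 of d0. In numbers 25 to 48 the counts were 6 of 16 and 4 of 20.

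*Fabp4*, *Lpl* and *Cebpa* in d0 rested largely on 1 cell, numbered 76. *Fabp4* (chr3:10204347-10208576, NCBIM37) had a mean of 32.0 CPM in d0, and this cell held 93.9% of its 1867 UMIs, at 1929.9 CPM against 103 in the next cell. *Lpl* (chr8:71404390-71431347) had a mean of 66.5 CPM, and the cell held 76.2% of its UMIs at 2934 CPM. *Cebpa* (chr7:35904312-35906945) was at 85.9 CPM there, 67.2% of its UMIs, and *Pparg* (chr6:115311239-115440419) at 91.4, the second highest of the 72 cells and 18.9% of its UMIs. Without the highest cell the d0 means were 5.27 CPM for *Fabp4*, 26.1 for *Lpl* and 1.26 for *Cebpa*. The same cell was highest for *Cd36*, a fatty acid transporter, at 232 CPM, for *Plin2*, a lipid droplet coat, at 818 CPM, and for *Angptl4* at 286 CPM. Other genes of the fat list were low in it, with 4.40 CPM of *Fasn* against a mean of 43.7 in the other 71 cells, 1.10 of *Scd1* against 27.4 and 4.40 of *Cebpd* against 76.2. Of the 21 listed genes with a UMI in d0, 10 were above the mean of the other cells there and 11 below it. Genes of mature fat cells, *Adipoq*, *Cfd*, *Retn*, *Lep*, *Plin1* and *Cidec*, were at 0. It had no UMI of the endothelial *Pecam1*, *Cdh5* and *Cldn5* or the macrophage *Ptprc* and *Adgre1*, and 46.2 CPM of *Csf1r*. Its fibroblast markers summed to 5861 CPM, rank 9 of the 72, and it held 908352 UMIs and 8394 genes.

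Outside this cell *Fabp4* was thin. It had a mean of 3.92 CPM in d8c, where 1 of 20 cells reached 10 CPM, and between 0.20 and 1.63 CPM in the other groups from d1 to d12c, with no UMI in d20. In d1, d3 to d6p, d8c, d12 and d12c 1 cell was at 10 CPM or more, and the means without it were at most 0.08 CPM. In d2, 43.4% of cells had a UMI but 1 of 83 reached 10 CPM, and the share was 8.54% after thinning. It was 4.35% and 36.4% in d2 cell numbers 1 to 24 and 25 to 48, and 73.9% and 66.7% in numbers 49 to 72 and 73 to 96. *Pparg* had a mean of 10.3 CPM in d0, where 11 of 72 cells reached 10 CPM and the highest had 187 CPM. It was at 2.60 CPM in d1, between 0.35 and 1.77 in the other groups but d8c and d20, and without a UMI in those. *Cebpa* stayed at or below 2.44 CPM throughout, with 15 of 670 cells at 10 CPM or more. Of all 670 cells, 35 reached 10 CPM of *Pparg*, 16 of *Fabp4*, 15 of *Cebpa* and 201 of *Lpl*. *Pparg* and *Fabp4* shared 5 cells, of 35 and 16 at that level (14.3% and 31.3%), and 4 of these 5 were in d0. *Pparg* and *Cebpa* shared 2 cells, both in d0, and *Cebpa* and *Fabp4* shared 1, also in d0. *Lpl* reached 10 CPM in 8 of the 16 *Fabp4* cells, 10 of the 35 *Pparg* cells and 5 of the 15 *Cebpa* cells. Within d0 these counts were 6 of 7, 4 of 11 and 1 of 4, where 28 of all 72 cells reached 10 CPM of *Lpl*. The parts of depth and of day in these overlaps were not tested.

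*Lpl* took another course than the other fat members. Its mean was 66.5 CPM in d0, 2.21 in d1, 6.11 in d2, 8.26 in d3, 22.2 in d4, 24.9 in d5, 60.2 in d6p, 53.6 in d8 and 66.5 in d12, and 6.91, 6.43 and 10.4 in d8c, d12c and d20. The medians were 4.88 CPM in d0, 0 in d1, 8.36 in d6p, 8.86 in d8, 9.08 in d12 and 0 in d20. It reached 10 CPM in 28 of 72 cells of d0, 4 of 40 of d1, 39 of 86 of d6p, 29 of 62 of d8, 32 of 67 of d12, 9 of 51 of d12c and 8 of 38 of d20. Single cells weighed on most of these means. Without the highest cell they were 26.1 CPM in d0, 3.46 in d2, 4.74 in d3, 13.1 in d4, 15.0 in d5, 33.8 in d6p and 47.99 in d12. In d12 the cells with little *Sox17* had a median of 10.2 CPM of *Lpl* and 31 of 61 reached 10 CPM, against 1.78 and 1 of 6 in those with *Sox17* at 100 CPM or more.

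**Figure D3:**
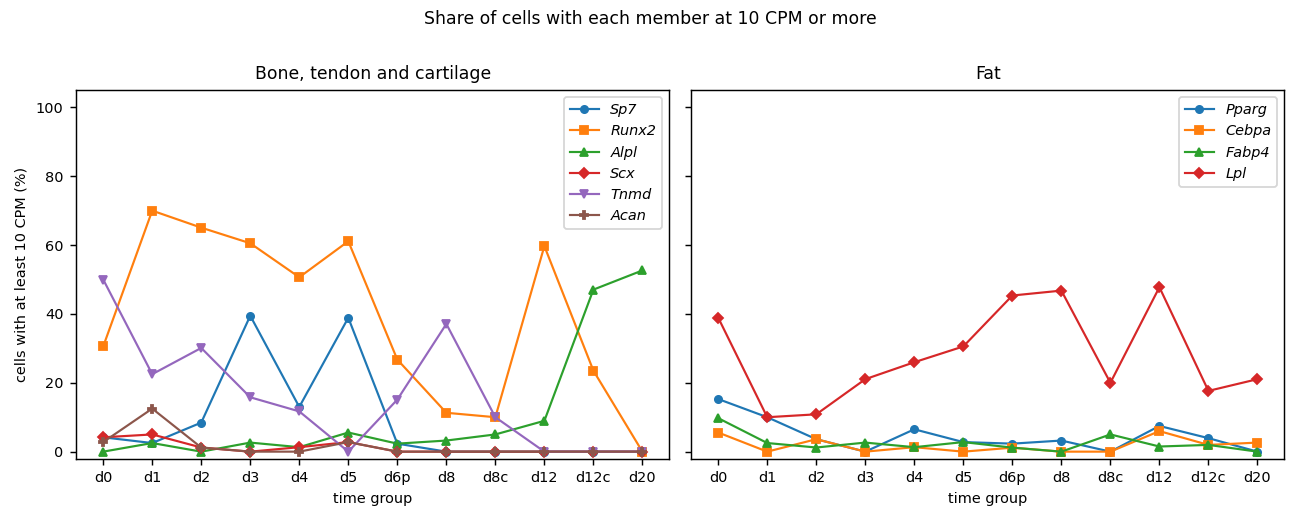
Share of kept cells with at least 10 CPM of each member, in percent, by time group, for the bone, tendon and cartilage members on the left and the fat members on the right; the lines join the groups in the order drawn and are no time scale. *Runx2* is above 50% from d1 to d5 and at d12, *Alpl* near 50% in d12c and d20, and *Lpl* between 45% and 48% in d6p, d8 and d12.

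Differences between groups were taken as the difference in mean log2(CPM + 1) and called past 1, among genes with a mean of at least 1 CPM over both groups. The comparisons with d0 share its cells. In d1, 9 members could be compared. *Runx2* was higher by 1.59, 1 call where 15.4% of all 11815 genes were called higher. *Tnmd* (-2.47) and *Lpl* (-1.69) were lower, 2 calls where 3.65% of all genes were called lower. With a pseudocount of 10 CPM the calls of *Runx2* (0.72) and *Lpl* (-0.82) were lost, and in the log2 of the mean that of *Runx2* was lost as well (0.20), while *Acan* was called higher (1.89). The median difference of all genes was 0.31 and that of the members 0.03. In d5, a comparison added after the levels had been seen, *Sp7* (2.24) and *Runx2* (1.06) were higher and *Tnmd* (-4.88) was lower among 8 members, with 23.6% of all genes called higher and 5.16% lower and a median of all genes of 0.39. The call of *Runx2* was lost under 6 alternatives, at 0.93 with either set of scaling factors (TMM or median of ratios), 0.84 per spike-in UMI, 0.78 after thinning, 0.53 with the larger pseudocount and 0.28 in the log2 of the mean. In d8, also added, *Lpl* (1.09) was higher and *Runx2* (-1.48) and *Tnmd* (-1.66) were lower among 7 members, with 13.6% and 10.8% of all genes called. In the log2 of the mean *Lpl* was lower in d8, at -0.30, and its call was also lost with at least 6000 detected genes (0.66), per spike-in UMI (0.37), in cells numbered above 48 (0.46) and with the larger pseudocount (0.53). That of *Runx2* was lost in cells numbered 1 to 48 (-0.98) and with the larger pseudocount (-0.60).

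In d12 against d0, *Runx2* (1.08), *Alpl* (1.84) and *Lpl* (1.21) were higher and *Tnmd* (-4.70) was lower among 8 members, beside 15.4% of all genes called higher and 12.7% lower. The calls of *Runx2* and *Lpl* rested on the scale and on the cells. Per spike-in UMI both were lower, at -0.18 and -0.065, with 5.08% of all genes then called higher and 43.7% lower. In cells numbered above 48 *Runx2* was lower, at -0.57, and after thinning *Runx2*, *Alpl* and *Lpl* were at 0.67, 0.81 and 0.93, short of the call. All 3 were also short of it with the larger pseudocount, at 0.46, 0.52 and 0.61, and *Runx2* and *Lpl* in the log2 of the mean, at 0.11 and 0.001. *Runx2* was at 0.98 in all deposited cells, and *Lpl* at 0.81 with at least 6000 detected genes and 0.47 in cells numbered above 48. In d20 against d0, *Alpl* (3.45) was the member called higher, and *Tnmd* (-5.06), *Runx2* (-2.35), *Lpl* (-1.26), *Fabp4* (-1.05) and *Pparg* (-1.02) were lower, 5 of 8 members where 19.3% of all genes were called lower and 11.5% higher. After thinning, *Lpl*, *Fabp4* and *Pparg* were at -0.84, -0.80 and -0.87, short of the call, and without the highest cell of each group *Fabp4* and *Pparg* were at -0.91 and -0.93. The call of *Fabp4* was also lost in cells numbered 1 to 48 (-0.68), and that of *Pparg* in cells numbered above 48 (-0.85) and in all deposited cells (-0.92). With the larger pseudocount *Alpl* and *Tnmd* were called and *Runx2*, *Lpl*, *Fabp4* and *Pparg* were not. Pooled over cells, *Fabp4* and *Pparg* were at least 136-fold and 32.1-fold lower in d20 than in d0, and 8.51-fold and 30.4-fold without the highest d0 cell of each gene. In d20 against d12, 4 members could be compared. *Alpl* (1.61) was higher and *Runx2* (-3.43) and *Lpl* (-2.47) were lower, beside 16.0% of all genes called higher and 24.0% lower. In all deposited cells *Alpl* was at 0.86, short of the call.

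**Figure D4:**
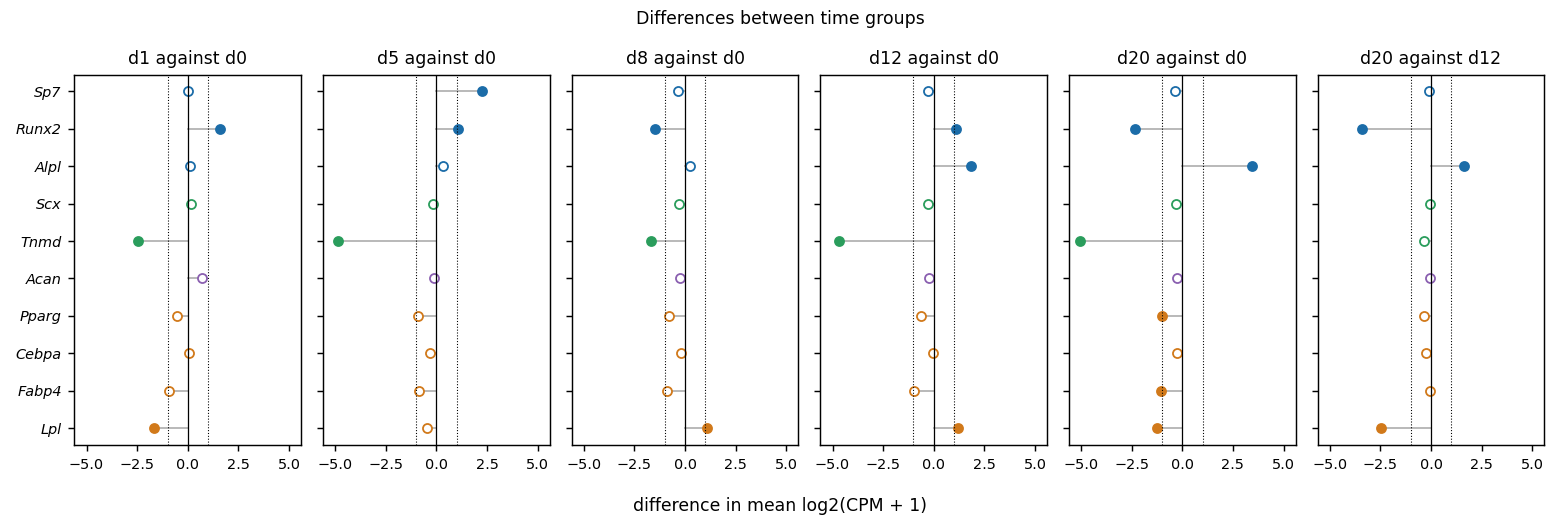
Difference in mean log2(CPM + 1) of the 10 members for 6 pairs of time groups, first minus second; filled points are calls past 1 (dotted lines), open points are not called or too low to compare, and colours mark the lineages. *Tnmd* is lower in each of the 5 comparisons with d0, from -1.66 to -5.06, and *Alpl* is called higher in the 3 that start from d12 or d20.

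Other genes of each lineage gave the surroundings of the members. Of 22 further bone genes, 13 could be compared between d12 and d0, with 4 called higher and 2 lower, beside 15.4% and 12.7% of all genes, and a median of 0.85. *Tnfsf11* (RANKL) had means of 2.24 and 66.1 CPM and *Ibsp* of 3.07 and 146.9 CPM in d0 and d12, and *Spp1*, osteopontin, differed by -2.13. Between d20 and d12, 5 of 14 were higher and 7 lower, beside 16.0% and 24.0% of all genes. *Enpp1* and *Ank*, which set extracellular pyrophosphate, and *Pth1r* were higher beside *Alpl*. *Pth1r* was at 2.09 CPM in d12 and 148.9 in d20, and *Enpp1* at 7.23 and 63.6. *Col1a1* was at 3856 CPM in d12 and 3.63 in d20. Of 13 tendon genes, 7 were higher and 3 lower in d12 than in d0, beside the same 15.4% and 12.7% of all genes, with a median of 1.02. *Dcn*, decorin, had means of 482 and 2828 CPM, and *Thbs2* of 66.7 and 1079 CPM, while *Fmod*, *Bgn* and *Lox* were lower, *Bgn* with 474 and 65.0 CPM. Between d20 and d12, 11 of 12 were lower and 0 higher, where 24.0% of all genes were lower, with a median of -4.95, and 10 of 10 fibroblast markers were lower as well.

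Of 19 cartilage genes, 11 could be compared between d12 and d0, where 15.4% of all genes were called higher and 12.7% lower. Of these 11, 1 was called, *Col2a1*, lower at 33.6 CPM in d0 and 0 in d12. *Chad*, *Cnmd* and *Matn1* were at 0 in the groups d0, d1, d5, d8, d12, d12c and d20. Of 30 fat genes, 17 could be compared, with 8 higher and 2 lower in d12, where 15.4% and 12.7% of all genes were called, and a median of 0.24. Among the higher were *Angptl4* (23.8 and 867 CPM), *Plin2* (135 and 1189), *Klf5* (31.1 and 399) and *Cebpb* (11.3 and 69.8), and *Dlk1*, a gene of preadipocytes, was lower (179 and 21.2). *Adipoq*, *Lep* and *Cidec* had no UMI in d0, d12 or d20. Of the 5 nuclear receptors that share partners or sites with PPARγ, *Ppard* was higher in d12, at 26.8 CPM against 4.84, and the others were within the call. This is 1 of 5 beside the same 15.4% of all genes. Between d20 and d12, 3 fat genes were higher and 6 lower of 19, where 16.0% and 24.0% of all genes were called, and *Cidea* had 0 CPM in d12 and 15.0 in d20. Markers of other cell types also differed. The summed median of 10 macrophage markers was 0.84 CPM in d0, 19.98 in d12 and 0 in d20. Of these 10, 5 were at 0 in d12, and *Csf1r* and *Cd14*, 2 of the 3 compared, were called higher there than in d0, beside 15.4% of all genes. That of 8 endothelial markers was 4.12, 32.0 and 127.7. Against d0, 1 of 4 compared was called higher in d12, *Kdr*, and 1 of 3 in d20, *Egfl7*, beside 15.4% and 11.5% of all genes. In d20, 3 of the 8 were at 0, and 12.2% of gene and cell pairs had a UMI in each of d0 and d20. The part of these markers in the results was not tested. The median of all genes was 0.003 between d12 and d0 and -0.14 between d20 and d12.

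The genes most like each member were sought by Pearson's correlation over the 12 group means of log2(CPM + 1), among 12127 genes. The 12 points share depth and cell makeup, and the values are a description. *Alpl* was followed by *Gpx2* (0.996), *Cdh1* (0.99) and *Slc30a10* (0.99), and *Gpx2* had 0 CPM in d0, 86.2 in d12, 560 in d12c and 305 in d20. *Sp7* was followed by *Mmp13*, a collagenase (0.98), *Enox1* and *Cend1*. Within d3 to d5 *Mmp13* had medians of 4.18 CPM in the *Sp7* cells and 0 in the others. It had a UMI in 31 of the 39 and 47 of the 112, and 10 CPM in 6 and 12. Its means went the other way, at 33.7 and 122 CPM, with highest cells at 1116 and 10903.5 CPM. The part of day in these values was not tested. *Runx2* came with *Ier5l*, *Isg20l2* and *Lats1* (0.96 to 0.98), and *Tnmd* with *Adk*, *Cavin2* and *Osr1* (0.93 to 0.95), of which *Osr1* had means of 140 CPM in d0 and 126 in d8. *Acan* came with *Nr5a1* (0.99) and *Retnla* (0.98), *Pparg* with *Col8a1*, *Fads3* and *Rasgrp3* (0.93 to 0.95), *Fabp4* with *Prr32*, *Ctnna1* and *Gdf15* (0.91 to 0.92), and *Lpl* with *Pamr1*, *Sparc* and *Cd63* (0.91 to 0.93). Among the members themselves *Alpl* was negatively related to each of the other 7 that reached 5 CPM, from -0.16 with *Lpl* to -0.62 with *Tnmd*, and the highest value was 0.78, for *Tnmd* with *Fabp4*.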

How the data were processed

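Single cells of the C6FAE course were sequenced in 10 batches. As deposited, the authors' table holds counts, UMIs per gene and cell, with reads of the same UMI counted once. Reads had been assigned to cells by barcode and mapped, once trimmed, against transcripts of mm9. The aligner was not given in the sources used here. Time groups were read from the cell names. The 4 rows of date-like names that occur more than once were left out, and 92 spike-in rows were kept out of library sizes. Columns of other samples numbered 0.

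The minimum was 4000 detected genes per cell. CPM were averaged over cells, with log2 values at a pseudocount of 1. A difference in mean log2 past 1 was called among genes with a mean of at least 1 CPM. It need not be a 2-fold difference in mean CPM, as *Lpl* in d12 against d0 was called at 1.21 with means of 66.5 CPM in both. A share of 0 was read as allowing 3 cells, and a fold against 0 as 3 UMIs over the group. Python 3.11.15, numpy 2.4.6, pandas 2.3.3, scipy 1.17.1 and matplotlib 3.10.9 were used, and edgeR 4.0.16 (TMM) and DESeq2 1.42.0 (size factors) gave group scaling factors for alternatives only. The procedure was tested on simulated data in which only genes of higher level were changed, which does not cover members at low levels. The named genes were the 10 members, genes of the lists called in d12 against d0 or d20 against d12, and the 3 genes most like each member that reached 5 CPM in a group, of which 1 is not reported here; other genes, such as *Thbs4*, *Cd36*, *Postn* or *Mmp13* in cells, were named after their values were seen. Members and lists were chosen with earlier results of these data known. Positions are from the NCBIM37 (mm9) annotation, counted from 1. No list was tested.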

Additional observations from a re-analysis of the deposited data

How the results depend on the processing

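No paired analysis was possible because cells carry no batch name, and no replicate could be left out. The number of members called was recomputed for filters on cells and genes, scaling, pseudocount, thinning and cell number ranges. The 3 calls between d1 and d0 became 5 in the log2 of the mean CPM and 1 with a pseudocount of 10 CPM. The 4 between d12 and d0 became 1 with that pseudocount and 1 after thinning to 50000 UMIs. The 6 between d20 and d0 became 2 and 3 under these settings. For the added comparisons, 3 calls between d5 and d0 became 5 with at least 6000 detected genes, 7 in the log2 of the mean and 2 under either set of scaling factors, after thinning or with the larger pseudocount, *Runx2* being the call lost in each of these 4, and 3 between d8 and d0 became 6 in the log2 of the mean and 1 with the larger pseudocount. *Tnmd* was called lower in each of these. The shares of all genes called moved as well. With the pseudocount of 10 CPM they were 1.72% to 6.24% in either direction, against 3.65% to 23.6% in the main setting. After thinning, 12.5% of all genes were higher and 14.0% lower in d12, 13.5% and 15.4% in d20, and 20.9% and 5.99% in d5. In the log2 of the mean the shares were 10.7% and 13.0% in d1, 21.4% and 10.9% in d5, and 19.1% and 15.7% in d8. In d5 they were 17.9% and 7.81% with at least 6000 detected genes, 20.6% and 6.42% with TMM factors, and 20.2% and 6.50% with median-of-ratios factors. The calls between d20 and d12 numbered 2 or 3 under all 12 alternatives, with 7.89% to 29.6% of all genes called higher and 9.32% to 31.2% lower. Differences changed sign for *Runx2* in d12 per spike-in UMI (-0.18) and in cells numbered above 48 (-0.57), for *Lpl* in d12 per spike-in UMI (-0.065), and for *Lpl* in d8 in the log2 of the mean (-0.30), and the causes were not tested. Per spike-in UMI, 2.20% of all genes were called higher and 56.0% lower between d20 and d0. No cells above number 48 were kept in d1 or d5, so that range gave no value there. Pooled bounds without the highest cell were added after the values had been seen. Levels below about 3 UMIs a group are limited by depth, which was lowest in d20.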
